A study of Macaca fascicularis
Homo sapiens with 2 samples.

Results

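Human and cynomolgus macaque pluripotent stem cells were compared at day 0, before neural induction, in a library that held cells of both species. The human cells were H9, an established embryonic stem cell line, and the macaque cells were 56A1, a line of induced pluripotent stem cells. Both lines are UGP2 knockouts, so the knockout is common to all cells compared here and no wild-type cell was analysed. No source used here describes the knockout clones or the position of the edit. Cells of both lines had been plated on Matrigel overnight in UPPS medium with 10 µM Y-27632, a ROCK inhibitor that helps single stem cells survive. Equal amounts of each line were then mixed and run on the Chromium 3' v3.1 chemistry, in which a unique molecular identifier (UMI) marks each captured transcript. A barcode was kept with at least 1000 UMIs, at least 500 genes and at most 20% mitochondrial UMIs. It was called human when at least 90% of its UMIs lay on human genes and cynomolgus when at most 10% did. That rule gave 5206 human and 2016 cynomolgus cells, 7222 of the 27811 barcodes that passed the filters in the series. Species goes together with line and with cell origin (embryonic against induced) in this design, so these cannot be told apart.

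The cynomolgus cells came from the edge of their own distribution. Of the 2016, 1752 had 8% to 10% human-genome UMIs, and a further 1104 barcodes with 10% to 12% were left out as neither species. For the human cells the limit cut little, with 115 cells just inside it (90% to 92%) and 97 barcodes just outside it (88% to 90%). In all, 4473 of 11695 passing day 0 barcodes (38.2%) were called neither. The median cell held 7219.5 UMIs and 3299 genes in human and 5714.5 UMIs and 3051.5 genes in cynomolgus. Mitochondrial genes took a median of 8% of UMIs in human and 4.35% in cynomolgus cells. Of the called cells, 30 had a barcode that a called day 7 cell also carried.

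Pluripotent stem cells of both primates are held in a state that resembles the epiblast after implantation and is called primed. Its core is a set of transcription factors and RNA-binding proteins, among them POU5F1, SOX2, SALL4 and LIN28A, and it is maintained by activin or NODAL and FGF signals. These cells divide fast, draw heavily on glycolysis and can store glycogen, whose sugar donor UDP-glucose is made by UGP2.

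Levels are counts per 1000000 (CPM) of a species' own non-mitochondrial UMIs, which came to 34670316 in human and 10683788 in cynomolgus cells. The ratio is log2((cynomolgus CPM + 1)/(human CPM + 1)), so a positive value is higher in cynomolgus. With 1 library and 1 line per species nothing was replicated and nothing was tested. Intervals in brackets are exact Poisson 95% intervals for levels and exact binomial ones for shares, and they cover counting error only. As a description of the spread between cells, each species was clustered alone into 8 human and 6 cynomolgus clusters, and the lowest and highest cluster CPM is given for the genes that matter. Clusters are not replicates.

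A symbol was given exactly once in each annotation for 15146 genes, and 10103 of them reached 5 CPM in at least 1 species. Across these genes the log2 levels of the species had a Pearson correlation of 0.72 and a Spearman correlation of 0.78, over genes, which are not independent replicates. The median ratio was 0.13, and the 5th and 95th percentiles were -2.36 and 2.20. Of the genes compared, 1613 (16.0%) were at least 2-fold higher in cynomolgus cells, 1490 (14.7%) were at least 2-fold higher in human cells, and 5746 (56.9%) lay above 0. The share at least 2-fold apart either way was 30.7%, so a gene list with that share of its members apart is no different from the genes at large. Rescaling by the median ratio of expressed genes shifted every ratio down by 0.15 and gave 1327 genes higher in cynomolgus and 1726 higher in human cells. Ratios just past 1 therefore depend on the scale.

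**Figure D1:**
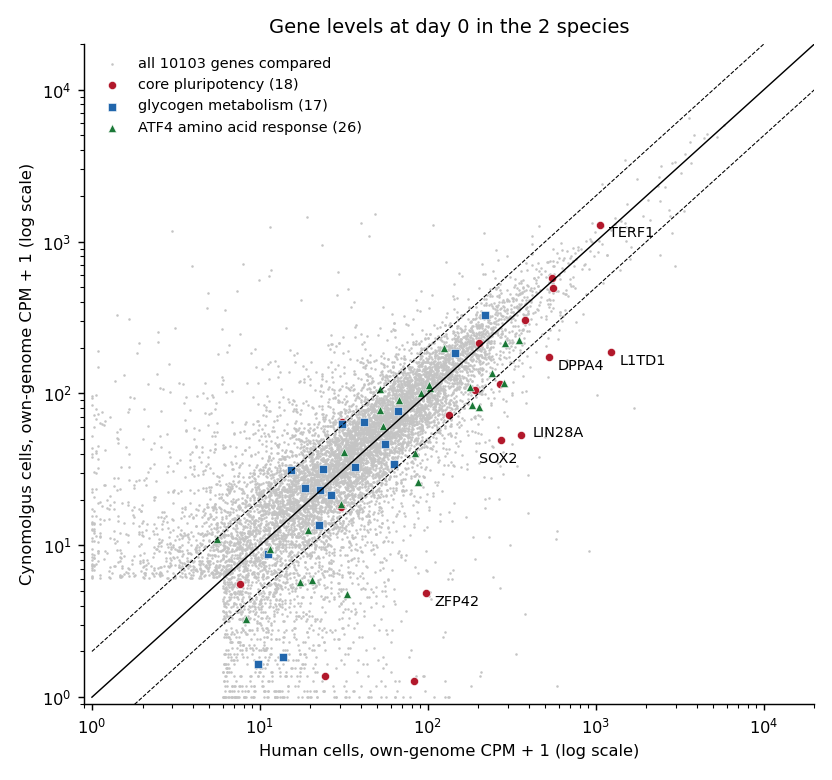
Own-genome CPM + 1 in human (x axis) and cynomolgus cells (y axis) at day 0, both on log scales, with 1 grey point per gene for 10103 genes and coloured points for 3 lists. The solid line marks equal levels and the dashed lines 2-fold; L1TD1, SOX2, LIN28A, DPPA4 and ZFP42 lie below the lower dashed line, and TERF1 lies near equality.

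RNA of each species also appeared in cells called as the other. The human copy of a gene was found in cynomolgus cells at a median of 4.93% of its level in human cells, over 3645 genes at 50 CPM or more, with 5th and 95th percentiles of 2.52% and 17.3%. Human mitochondrial UMIs gave 5.01%. The cynomolgus copy was found in human cells at a median of 2.24%. For 149 of the 3645 genes (4.09%) the human copy in cynomolgus cells exceeded 20% of the human level. Some of these genes, and some at lower levels, are given below also with both copies summed. Reads of one species assigned to the other's copy and free RNA from broken cells were not separated.

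UGP2 RNA was found in both species despite the knockout, at 217 CPM (212 to 222) in human and 327 CPM (316 to 338) in cynomolgus cells, 1.51-fold higher in cynomolgus (ratio 0.59). After thinning each cell to 2500 UMIs, 37.0% of human and 52.3% of cynomolgus cells held a UGP2 UMI. Before thinning these shares were 66.1% and 74.7%. Cluster levels overlapped, from 95.4 to 400 CPM in human and from 157 to 455 CPM in cynomolgus. A 3' count reads the end of the transcript and does not show whether the enzyme is made.

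The labelled pluripotent state was visible in both species, at different levels for different genes. TERF1, a telomere-binding protein abundant in stem cells, was at 1053 CPM in human and 1288 CPM in cynomolgus cells. DNMT3B, the DNA methyltransferase of the early embryo, was at 552 and 496 CPM. TERF1 was found in 86.4% of human and 92.4% of cynomolgus cells at equal depth, and DNMT3B in 67.6% and 64.9%. These shares were 93.4% and 98.3% for TERF1 and 86.4% and 86.3% for DNMT3B before thinning.

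Most of the core pluripotency genes that could be compared were lower in cynomolgus cells. Of 27 genes on that list, 18 were compared, and 8 were at least 2-fold higher in human cells (all genes, 14.7%) against 1 in cynomolgus cells (all genes, 16.0%). Only 4 of the 18 lay above 0, and the list's median ratio was -0.86, beside 0.13 for all genes. Summing both copies moved the median to -0.48 and left 7 genes at least 2-fold higher in human cells. A stricter filter, which kept genes whose other-genome copy held at most 10% of both copies' UMIs in cells of each species, left 8 members with 1 at least 2-fold higher in each species and a median of -0.24. That filter removes, by its construction, genes that are low in one species. The list was chosen with earlier results of these data known, and its position is a description of these 2 lines.

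L1TD1 was the most abundant, in human cells, of the 18 compared pluripotency genes. It encodes an RNA-binding protein of pluripotent cells and stood at 1225 CPM (1213 to 1236) in human and 186 CPM (178 to 194) in cynomolgus cells, 6.60-fold apart. Every human cluster (623 to 1498 CPM) lay above every cynomolgus cluster (83.8 to 226 CPM). At equal depth 89.3% of human and 35.1% of cynomolgus cells held a UMI of their own L1TD1, and 11.1% of the cynomolgus cells held a UMI of the human copy. Without thinning the own-copy shares were 95.5% and 58.3%. The human copy of L1TD1 was at 3.97% of its human level in cynomolgus cells, close to the median of all genes.

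DPPA4, a chromatin protein of early embryos, followed the same direction at 524 and 172 CPM, with clusters of 294 to 585 CPM in human and 97.2 to 188 CPM in cynomolgus. POLR3G, a subunit of RNA polymerase III found in stem cells, was at 269 and 114 CPM. ZFP42, a zinc finger gene long used as a stem cell marker, was at 96.0 CPM in human and 3.84 CPM in cynomolgus cells. For these 3 genes the human and cynomolgus cluster ranges did not meet. VRTN, a developmental regulator, stood at 82.1 CPM in human cells and at 0.281 CPM in cynomolgus cells, which is 3 counts. LCK, a tyrosine kinase gene transcribed in pluripotent cells, was the member at least 2-fold higher in cynomolgus cells, at 29.9 CPM in human and 64.3 CPM in cynomolgus (ratio 1.08, and overlapping clusters).

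For several core pluripotency genes the human copy made up much of what was counted in cynomolgus cells. SOX2, which pairs with POU5F1 on DNA, was at 270 CPM in human and 48.6 CPM in cynomolgus cells, a ratio of -2.45, while cynomolgus cells also held 51.5 CPM of the human SOX2 copy. Summing both copies gave -1.43. LIN28A, which blocks maturation of let-7 microRNAs, was at 359 and 52.4 CPM, with 99.3 CPM of the human copy in cynomolgus cells, and its ratio went from -2.75 to -1.24. Both genes stayed at least 2-fold higher in human cells on the summed scale.

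FOXD3 did not. This forkhead factor was at 23.2 CPM in human and 0.374 CPM in cynomolgus cells, but cynomolgus cells carried 30.4 CPM of its human copy, more than the human cells themselves, and the summed ratio was 0.39. SALL4, a zinc finger partner of POU5F1, was at 133 and 71.4 CPM with 40.8 CPM of the human copy in cynomolgus cells, and its ratio went from -0.89 to -0.25. The part that reads of one species given to the other's copy have in these values was not tested.

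Of the 9 genes of the list that were not compared, GDF3, a ligand of the NODAL family, was under 5 CPM in both species (4.36 and 1.40 CPM), and the other 8 had no shared symbol, POU5F1 and NANOG among them. POU5F1 was at 1205 CPM in human cells and its human copy at 192 CPM in cynomolgus cells, 15.9% of the human level against a median of 4.93%. TRIM71, a ubiquitin ligase and RNA-binding protein of stem cells, was at 286 CPM in human cells, and its human copy was at 305 CPM in cynomolgus cells, 107% of the human level. TDGF1, the NODAL co-receptor, was at 191 CPM in human cells and its human copy at 4.46% of that in cynomolgus cells, near the median. How much POU5F1 the cynomolgus cells expressed was not measured.

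CCHCR1 is the symbol that neighbours POU5F1 in the RefSeq gene order of another macaque assembly, T2T-MFA8v1.1. It was at 10.6 CPM in human and 652 CPM in cynomolgus cells at day 0, a ratio of 5.82. At day 7 of neural induction the values were 15.1 and 8.29 CPM. Human POU5F1 was lower at day 7 too, at 2.86 CPM in human cells. Whether cynomolgus UMIs counted as CCHCR1 come from its neighbour was not tested.

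**Figure D2:**
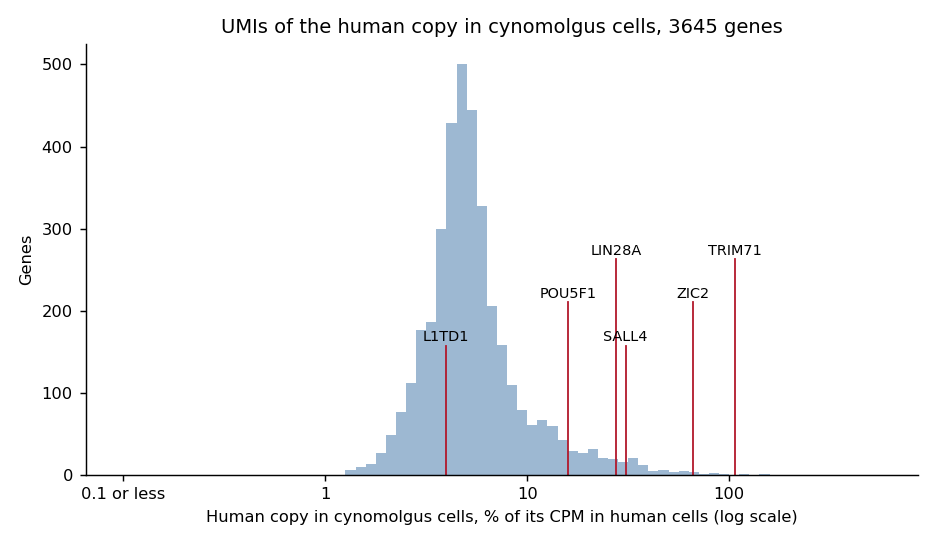
Level of the human copy in cynomolgus cells as a percentage of its level in human cells (x axis, log scale) for 3645 shared genes at 50 CPM or more in human cells, with the number of genes on the y axis. Red lines mark 6 pluripotency genes, of which POU5F1 and TRIM71 have no shared symbol and are not in the histogram; L1TD1 lies in the bulk at 3.97%, and LIN28A (27.7%), ZIC2 and TRIM71 (107%) lie in the right tail.

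Genes of the primed state were less far apart once both copies were counted. Of 13 compared, human cells had the higher level by at least 2-fold for 3 (all genes, 14.7%) and cynomolgus cells for 1 (all genes, 16.0%). The median went from -0.58 to -0.07 with both copies summed. ZIC2, a zinc finger factor of the primed epiblast, was at 238 CPM in human and 26.7 CPM in cynomolgus cells, beside 158 CPM of its human copy in cynomolgus cells, and its ratio went from -3.11 to -0.37. THY1, a surface glycoprotein used to sort primed cells, was at 200 and 46.2 CPM and kept a summed ratio of -1.89, with only 7.11 CPM of its human copy in cynomolgus cells. OTX2 (21.2 and 22.7 CPM), SALL1 (23.5 and 23.8 CPM) and TCF7L1 (402 and 373 CPM), 3 regulators of the epiblast, were at nearly equal levels.

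Most naive markers were low in both species, with GBX2 in cynomolgus cells as the main exception. Of 18 on the list, 12 with a shared symbol stayed under 5 CPM in both species and 3 had no shared symbol. The other 3 reached 5 CPM only in cynomolgus cells, so that they were higher there follows from this limit. GBX2, a homeobox gene, was at 1.59 and 43.5 CPM, ESRRB, an orphan nuclear receptor, was at 2.39 and 11.6 CPM, and TFAP2C was at 2.68 and 8.33 CPM. GBX2 was found in 0.425% of human and 9.53% of cynomolgus cells at equal depth, and in 1.04% and 18.0% before thinning. Its cynomolgus clusters ran from 12.2 to 132 CPM. Members under 5 CPM went both ways. DPPA5 was at 3.86 CPM in human cells and had 0 UMIs in cynomolgus cells, and KLF4 was at 0.663 and 2.62 CPM.

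NODAL and activin signalling keeps primed cells undifferentiated, and its genes were not shifted as a group. Of 17 compared, 2 were at least 2-fold higher in cynomolgus (all genes, 16.0%) and 3 in human cells (all genes, 14.7%). The median was -0.16 and became 0.12 with both copies summed. On that summed scale 2 were at least 2-fold higher in cynomolgus and 0 in human cells. FST, a secreted inhibitor that binds activin, was at 13.9 CPM in human and 87.0 CPM in cynomolgus cells, with cluster ranges of 11 to 31.8 and 57.8 to 204 CPM. BAMBI, a decoy receptor, was at 6.81 and 19.4 CPM. SKIL, an induced repressor of SMAD proteins, was at 137 and 66.1 CPM, and LEFTY2, a NODAL antagonist and target, at 7.47 and 2.43 CPM. With both copies summed the ratios of SKIL and LEFTY2 were -0.91 and -0.70, under 2-fold.

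Among genes of BMP signalling more were higher in cynomolgus than in human cells. Of 13 compared, 5 were at least 2-fold higher in cynomolgus (38.5% beside 16.0% of all genes) and 1 in human cells (all genes, 14.7%). The median was 0.68. Among the targets, ID3, a helix-loop-helix inhibitor, was at 287 CPM in human and 583 CPM in cynomolgus cells (ratio 1.02), ID4 at 9.11 and 20 CPM, and ID1 the other way at 174 and 108 CPM. The ligand BMP4 was low in both, at 1.04 and 7.96 CPM. CHRD, a secreted BMP antagonist, was at 0.288 CPM in human and 20.2 CPM in cynomolgus cells. The receptor BMPR1A was higher in human cells at 245 and 92 CPM, although human clusters spread from 27.9 to 362 CPM around the cynomolgus range of 81.4 to 105 CPM. Rescaling by the median ratio gave 3 at least 2-fold higher in cynomolgus cells. The median was 0.24 over the 10 members left by the filter on the other-genome copy.

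FGF signalling through ERK was split. Of 20 genes, 3 were at least 2-fold higher in cynomolgus (all genes, 16.0%) and 2 in human cells (all genes, 14.7%). The median was 0.00. The ERK phosphatase DUSP6 was at 157 and 318 CPM and the ETS factor ETV4 at 55.4 and 131 CPM, while the ERK target PHLDA1 was at 68.0 and 25.9 CPM and the phosphatase DUSP4 at 8.94 and 0.842 CPM. With both copies summed the ratio of DUSP4 was -0.99, under 2-fold. The receptor FGFR3 was at 1.41 and 12 CPM. Human DUSP6 clusters ran from 32.2 to 239 CPM and overlapped the cynomolgus ones of 104 to 494 CPM.

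In the WNT pathway 1 of 18 genes was at least 2-fold higher in cynomolgus and 2 in human cells (16.7% apart, beside 30.7% of all genes). The median was -0.19 and became 0.11 over the 10 members left by the filter on the other-genome copy. PORCN, the acyltransferase that loads WNT proteins for secretion, was at 7.01 CPM in human cells and had 0 UMIs in cynomolgus cells, where 3 counts would be 0.281 CPM. AXIN2, a target that feeds back on the pathway, was at 7.50 and 2.15 CPM. WLS, the carrier of WNT proteins, was at 2.71 and 6.46 CPM.

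**Figure D3:**
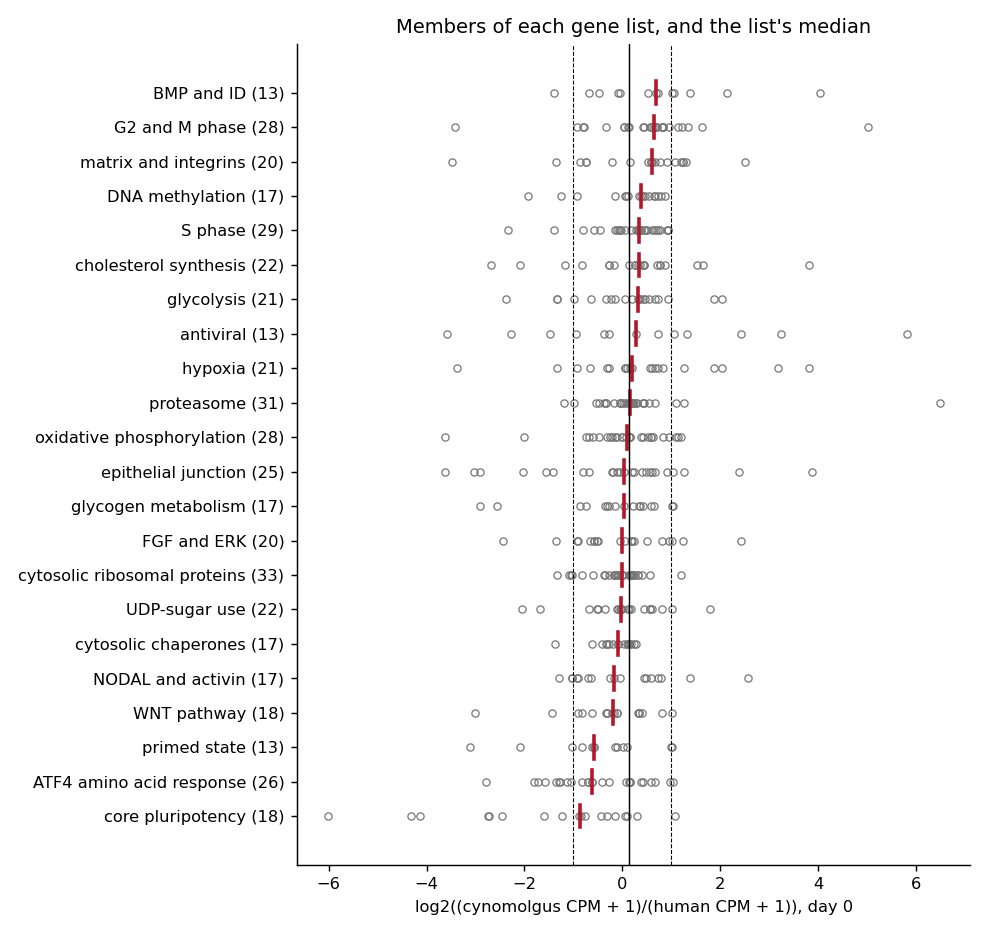
log2((cynomolgus CPM + 1)/(human CPM + 1)) at day 0 (x axis) for the compared members of 22 gene lists (rows, with the number of members), 1 circle per gene and a red bar at the list's median. The solid line is the median of all 10103 genes (0.13) and the dashed lines mark 2-fold; core pluripotency has the lowest median (-0.86) of the lists drawn, ATF4 amino acid response follows (-0.62), and BMP and ID has the highest (0.68).

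Glycogen genes, the subject of the knockout, were at similar levels in the 2 lines. Of 17 compared, 2 were at least 2-fold higher in cynomolgus and 2 in human cells (23.5%, beside 30.7% of all genes), and the median was 0.03. The primer GYG1 was at 40.7 CPM in human and 64.0 CPM in cynomolgus cells and the branching enzyme GBE1 at 22.7 and 31 CPM. Of the enzymes that break glycogen down, the phosphorylase PYGB was at 14.4 and 30.1 CPM and PYGL at 21.6 and 12.5 CPM. GAA, the lysosomal glucosidase, was at 12.8 and 0.842 CPM, with 6.27 CPM of its human copy in cynomolgus cells and a summed ratio of -0.76. The synthase GYS1 had no shared symbol. It was at 18.7 CPM in human cells, and its human copy stood at 52.5% of that level in cynomolgus cells.

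Enzymes that use UDP-sugars were likewise near equality. Of 22 compared, 2 were at least 2-fold higher in cynomolgus (all genes, 16.0%) and 2 in human cells (all genes, 14.7%). The median was -0.02. UGDH, which oxidises UDP-glucose, was at 96.2 and 170 CPM. UGCG, which makes glucosylceramide from UDP-glucose, was at 33.3 and 31.3 CPM, and UGGT1, a glucosyltransferase of protein folding, at 50.9 and 46.9 CPM. Its relative UGGT2 was at 122 and 28.5 CPM. SLC35D1, a transporter of UDP-sugars into the endoplasmic reticulum, was at 10.3 and 38.0 CPM.

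Both glucose transporters measured were higher in cynomolgus cells, while the members of the glycolysis list that could be compared were split. Of its 30 genes, 9 had no shared symbol and were not compared. Among them were GPI, ALDOA, TPI1, GAPDH, PGK1, PGAM1, ENO1 (1227 CPM in human cells) and LDHA, which are enzymes of the main pathway. SLC2A1, the basal glucose transporter, was at 84.7 CPM (81.7 to 87.9) in human and 352 CPM (341 to 364) in cynomolgus cells, 4.16-fold apart, and was found in 17.1% and 50% of cells at equal depth and in 38.1% and 71.5% before thinning. SLC2A3, a transporter of high affinity, was at 142 and 524 CPM, and its human clusters of 48.6 to 201 CPM lay below the cynomolgus ones of 318 to 726 CPM. SLC2A1 clusters overlapped, at 30.6 to 297 CPM in human and 218 to 401 CPM in cynomolgus. These were the only 2 of 21 compared glycolysis genes at least 2-fold higher in cynomolgus cells (all genes, 16.0%). In human cells 3 were at least 2-fold higher (all genes, 14.7%), and the list median was 0.32. The 3 were the phosphofructokinase PFKP (63.8 and 11.5 CPM), the enolase ENO2 (24.3 and 9.08 CPM) and the kinase PDK1 (33.9 and 12.9 CPM). With both copies summed the ratio of PDK1 was -0.73, under 2-fold. The uptake pair was higher in cynomolgus cells at day 7 as well, at 113 and 527 CPM for SLC2A1 and 105 and 679 CPM for SLC2A3.

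Genes induced by hypoxia were about as often far apart as genes at large. Of 21 compared, 5 were at least 2-fold higher in cynomolgus and 2 in human cells (33.3%, beside 30.7% of all genes), with a median of 0.20. CA9, a carbonic anhydrase, was at 1.15 and 29.3 CPM, and EGLN1, the oxygen-sensing hydroxylase, at 0.750 and 14.9 CPM. BNIP3, a mitophagy receptor, was at 102 and 244 CPM, although the highest human cluster reached 819 CPM. ADM, the vasodilator peptide adrenomedullin, went the other way at 54.8 and 4.40 CPM. At day 7 its direction was reversed, at 5.51 CPM in human and 44.5 CPM in cynomolgus cells.

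Nuclear genes of oxidative phosphorylation had a median of 0.10, close to that of all genes. Of 28 compared, 3 were at least 2-fold higher in cynomolgus (all genes, 16.0%) and 2 in human cells (all genes, 14.7%). Another 12 genes of the list had no shared symbol. SDHC, a membrane subunit of succinate dehydrogenase, was at 217 CPM in human and 16.7 CPM in cynomolgus cells, and stayed so at day 7 (150 and 15 CPM). Its partner SDHD was at 117 and 229 CPM. COX7C, a cytochrome oxidase subunit, was at 1092 and 2393 CPM.

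Among targets of ATF4, the factor that answers amino acid shortage, more were lower in cynomolgus cells than higher. Of 26 compared, 9 (34.6%, beside 14.7% of all genes) were at least 2-fold higher in human cells and 1 in cynomolgus cells (all genes, 16.0%). Of the 26, 10 lay above 0 (all genes, 56.9%). The median was -0.62 and moved to -0.56 with both copies summed. The filter on the other-genome copy left 21 members, 4 at least 2-fold higher in human cells and a median of -0.27. The 9 include CBS and SHMT2, of sulfur and serine metabolism, at 282 and 116 CPM and at 183 and 82.6 CPM. GARS1, the glycyl-tRNA synthetase, was at 200 and 80.8 CPM, PYCR1 of proline synthesis at 85.9 and 25.2 CPM, and the secreted glycoprotein STC2 at 31.8 and 3.74 CPM. Of the regulators, DDIT3 was at 16.3 and 4.77 CPM and TRIB3 at 7.27 and 2.25 CPM. SLC7A5, a transporter of large neutral amino acids, was the exception at 50.7 and 106 CPM. Counted in either direction, the human and cynomolgus cluster ranges did not meet for 14 of the 26 members, beside 29.4% of all genes compared. With finer clusters (resolution 1, 11 human and 9 cynomolgus clusters) they did not meet for 10 of the 26, beside 24.3% of all genes, and the ranges of DDIT3, TRIB3 and CHAC1 then overlapped. At day 7 the list's median was 0.53, on the cynomolgus side.

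Cholesterol synthesis showed 3 of 22 genes at least 2-fold higher in each species (27.3% apart, beside 30.7% of all genes), with a median of 0.33. The 3 on the cynomolgus side were enzymes. CYP51A1, the sterol demethylase, was at 10.1 and 155 CPM, HMGCS1, which makes HMG-CoA, at 213 and 611 CPM, and MVD, of the mevalonate steps, at 41.7 and 133 CPM. Cynomolgus cells also held 122 CPM of the human HMGCS1 copy, and the summed ratio of HMGCS1 was 1.68. On the human side, SREBF1, a transcription factor of lipid synthesis, was at 28.8 and 3.65 CPM.

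Genes of cell division were modestly higher in cynomolgus cells. Of 28 G2 and M phase genes, 23 lay above 0 (all genes, 56.9%), with a median of 0.64. In cynomolgus cells 5 were at least 2-fold higher (17.9%), near the share of all genes (16.0%). In human cells 1 was at least 2-fold higher (3.57%, all genes 14.7%). MKI67, a protein of dividing nuclei, was at 96.5 CPM (93.2 to 99.8) and 246 CPM (237 to 255), and was found in 19.1% of human and 40.4% of cynomolgus cells at equal depth and in 40.4% and 63.9% before thinning. ANLN, a scaffold of the cleavage furrow, was at 42.7 and 134 CPM, and CENPA, the centromere histone, the other way at 52.6 and 4.02 CPM. The 29 S phase genes had a median of 0.34, with 0 at least 2-fold higher in cynomolgus cells (all genes, 16.0%). In human cells 2 were at least 2-fold higher (all genes, 14.7%), E2F1 (30 and 5.15 CPM) and CHAF1B (30.7 and 11 CPM). No phase was called per cell.

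Protein homeostasis genes were close to equal. Of 31 proteasome genes, 3 were at least 2-fold higher in cynomolgus (all genes, 16.0%) and 1 in human cells (all genes, 14.7%). The median was 0.17. The catalytic chain PSMB7 was at 173 and 415 CPM and PSMB2 at 600 and 261 CPM, and PSMA2, of the outer ring, is described below. Of 17 cytosolic chaperones compared only HSPH1 was 2-fold apart (all genes, 30.7%), at 122 and 46.4 CPM, with a median of -0.09. Another 10 chaperones, HSP90AA1 and HSPA8 among them, had no shared symbol. Among 33 of 75 cytosolic ribosomal protein genes with a shared symbol the median was -0.00. Of the 33, 1 was at least 2-fold higher in cynomolgus (all genes, 16.0%) and 4 in human cells (all genes, 14.7%).

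Epithelial genes differed in which junction proteins each line carried. Of 25 compared, 6 were higher by at least 2-fold in human cells (all genes, 14.7%) and 4 in cynomolgus cells (all genes, 16.0%). The median was 0.04. EPCAM, an adhesion molecule of epithelia and stem cells, was at 260 CPM (254 to 265) in human and 33.6 CPM (30.2 to 37.3) in cynomolgus cells. The claudin CLDN7 was at 133 and 15.4 CPM. The adhesion molecule F11R was at 39.3 and 210 CPM. The clusters of the species did not overlap for these 3 genes.

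Matrix and integrin genes leaned to cynomolgus cells, with 6 of 20 at least 2-fold higher there, 2 in human cells and a median of 0.60. SPP1, secreted osteopontin, was at 32.5 and 188 CPM, the laminin chain LAMB1 at 21.2 and 51.5 CPM and the basement membrane collagen COL4A2 at 68.2 and 145 CPM. Human COL4A2 clusters ran from 3.60 to 130 CPM and overlapped the cynomolgus ones of 115 to 214 CPM. COL1A2, a fibrillar collagen, was at 40.6 and 2.71 CPM. DNA methylation genes were close together, with 0 of 17 at least 2-fold higher in cynomolgus cells (all genes, 16.0%). In human cells 2 were at least 2-fold higher (all genes, 14.7%), KDM2B (104 and 42.7 CPM) and ZBTB38 (10.7 and 2.06 CPM). Their median was 0.38, and 13 of the 17 lay above 0 (all genes, 56.9%).

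Antiviral genes that stem cells express without infection differed in both directions. Of 13 compared, 5 were at least 2-fold higher in cynomolgus and 3 in human cells (61.5% apart, beside 30.7% of all genes), with a median of 0.28. Of the 27 genes on the list, 7 had no shared symbol. Among them were IFITM2, IFITM3 and BST2, at 87.9, 199 and 273 CPM in human cells, so the IFITM family was not compared as a whole. IFITM1, which blocks viral entry, was at 8.85 CPM in human and 557 CPM in cynomolgus cells. It was found in 2.17% of human and 70.1% of cynomolgus cells at equal depth and in 5.61% and 90.1% before thinning, and its cluster ranges were 5.67 to 15.4 and 261 to 668 CPM. MX1, an interferon-induced GTPase, was at 2.86 and 35.2 CPM. On the human side stood the ubiquitin-like ISG15 at 28 and 1.4 CPM and the RNA sensor kinase EIF2AK2 at 106 and 21.2 CPM. Without the genes beside a missing neighbour the median of the list was -0.28.

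The genes furthest apart, 15 in each direction without those not reported here, were taken from 4406 genes that reached 50 CPM in 1 species at day 0 and had at least 5 CPM of their own copy in each species on either day. For 28 of the 30 the cluster ranges of the species did not overlap (all genes, 29.4%), which their choice by distance in the same cells favours, so nothing is read from it. NME2, a nucleoside diphosphate kinase, led the cynomolgus side at 10.5 CPM in human and 1237 CPM in cynomolgus cells. YJEFN3 (3.92 and 457 CPM), the proteasome gene PSMA2 (6.89 and 706 CPM), the mitochondrial rRNA methyltransferase gene NSUN4 (18.2 and 1441 CPM) and DEPDC5, of the GATOR1 complex (6.26 and 473 CPM), came next. POT1, which caps telomeres, was at 22.5 and 951 CPM, and SYN2, a synaptic vesicle protein of neurons, at 39.0 and 1326 CPM. SYN2 stood at 1101 to 1612 CPM in every cynomolgus cluster and at 3.60 to 59.9 CPM in the human ones. ANKS1B, a scaffold of the postsynaptic density in neurons, was likewise high in cynomolgus cells, at 47.7 and 1529 CPM. In human cells PSMA1, PSMA3, PSMA4, PSMA5 and PSMA7 had clusters between 138 and 1085 CPM, far above PSMA2, while PSMA6 was at 9.26 CPM. The human annotation also holds a joined NME1-NME2 entry, at 0.317 CPM in human cells. The part of the human annotation in the low human values was not tested.

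On the human side, PCLAF, a PCNA-binding protein of replication, was at 377 CPM in human and 2.53 CPM in cynomolgus cells, and ERH, a small nuclear protein of RNA processing, at 915 and 8.24 CPM. PKIB, an inhibitor of protein kinase A, followed at 582 and 9.92 CPM, SNRPN, an imprinted splicing factor gene, at 584 and 11.4 CPM, and the keratin KRT10 at 244 and 5.15 CPM. HS3ST5, which adds sulfate to heparan sulfate, was at 185 and 10.3 CPM. HS3ST5 and DPP10, a potassium channel partner (189 and 7.11 CPM), were the 2 genes whose clusters overlapped. Human clusters ran from 16.2 to 425 CPM for HS3ST5 and from 19.8 to 1401 CPM for DPP10.

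**Figure D4:**
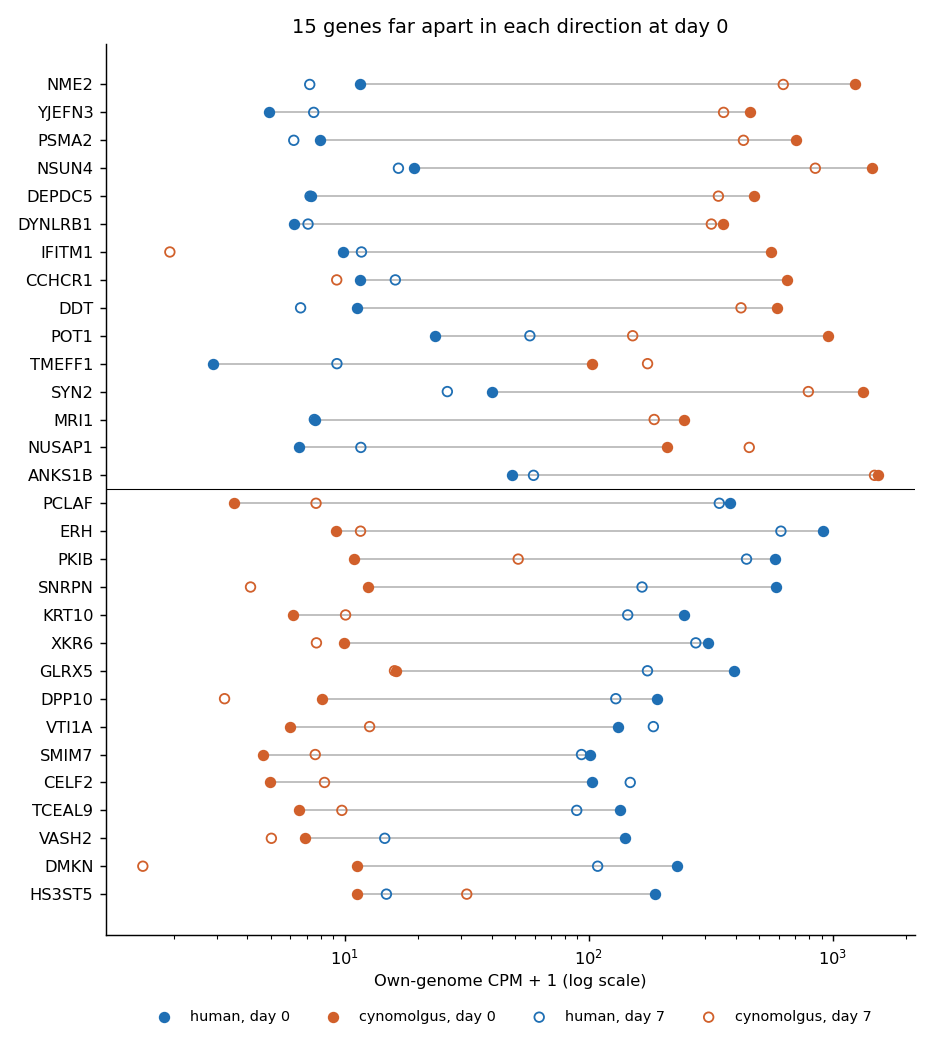
Own-genome CPM + 1 (x axis, log scale) of the 15 genes named in each direction at day 0 (rows), with human cells in blue, cynomolgus cells in orange, day 0 as filled and day 7 as open circles. IFITM1 and CCHCR1 in cynomolgus cells and HS3ST5 in human cells are far lower on day 7 than on day 0, and 13 of 15 upper and 14 of 15 lower genes kept a 2-fold difference in the same direction.

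Most of these large differences were also present after 7 days of neural induction, in the other library of the same lines. Both libraries were counted on the same gene annotation, and its part in what the days share was not tested. Of the 15 genes named as higher in cynomolgus cells, 13 were at least 2-fold higher there at day 7, and of the 15 named as higher in human cells, 14 were so. NME2 was then at 6.20 and 626 CPM and ERH at 612 and 10.6 CPM. The exceptions were IFITM1 (10.7 CPM in human and 0.924 CPM in cynomolgus cells), CCHCR1 and HS3ST5 (13.8 and 30.7 CPM). Over all 9511 genes at 5 CPM on both days, 916 of the 1468 genes at least 2-fold higher in cynomolgus cells at day 0 were so at day 7 (62.4% of the day 0 genes and 60.5% of the 1513 day 7 genes), and 31 were 2-fold apart the opposite way. For human cells 837 of 1270 were shared (65.9% and 65.3% of 1282), and 52 were opposite. At day 7, 16.9% of 10157 genes were at least 2-fold higher in cynomolgus and 14.5% in human cells. The pluripotency gene POLR3G was among those that turned, at 9.03 and 70.1 CPM on day 7.

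**Figure D5:**
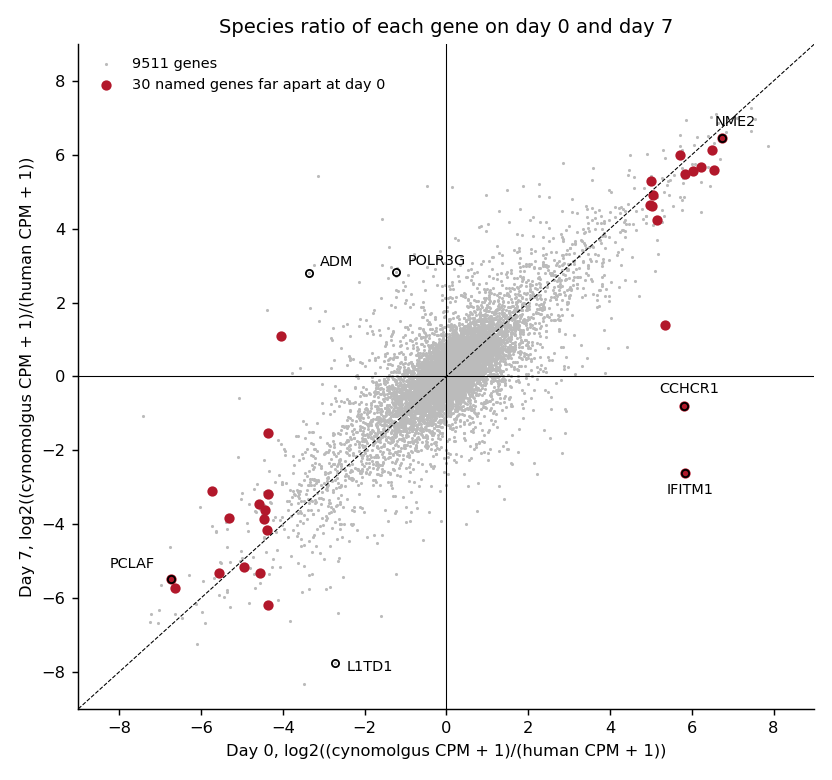
log2((cynomolgus CPM + 1)/(human CPM + 1)) at day 0 (x axis) and day 7 (y axis), 1 grey point per gene for 9511 genes and red points for the 30 genes named for their distance at day 0. Most red points lie near the dashed line of equal ratios; IFITM1 and CCHCR1 (labelled) and HS3ST5 lie across the zero line on day 7, and the circled genes ADM and POLR3G lie above it after being below it on day 0.

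A symbol missing from the cynomolgus annotation stood next to some of the genes that were far apart. Of 9772 genes placed in the RefSeq order, 11.5% had a neighbour within 2 genes that reached 50 CPM in human cells and had no cynomolgus symbol. Among genes at least 8-fold higher in cynomolgus cells the share was 20.6% (48 of 233), and among genes at least 8-fold higher in human cells 10.1% (29 of 286). Of the 15 genes named on the cynomolgus side, 12 were placed and 4 had such a neighbour, namely YJEFN3 beside NDUFA13, PSMA2 beside GLI3, DEPDC5 beside YWHAH and CCHCR1 beside POU5F1. On the human side it was 3 of 15, CELF2 beside USP6NL, TCEAL9 beside BEX3 and HS3ST5 beside MARCKS. The part of the annotation in these differences was not tested.

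Most markers of other cell types were low at day 0 in both species, with some neural and some fibroblast markers as exceptions. Neural progenitor markers (21 measured, 10 at 5 CPM) summed to 342 CPM in human and 416 CPM in cynomolgus cells. Of the 10, 4 were higher by at least 2-fold in human cells (all genes, 14.7%) and 2 in cynomolgus cells (all genes, 16.0%). The eye field factors SIX3 (25.5 and 5.99 CPM) and SIX6 (28.2 and 3.84 CPM) were higher in human cells and the filament gene NES in cynomolgus cells (57.1 and 168 CPM). NES stood at 136 to 255 CPM in every cynomolgus cluster and at 34.2 to 86.5 CPM in the human ones. SIX3 ranged over human clusters from 1.52 to 379 CPM, and 434 human and 106 cynomolgus cells fell in the clusters with more than 3 times the neural marker sum of all cells of their species. In the other clusters the neural marker sum was 172 to 241 CPM in human and 292 to 380 CPM in cynomolgus cells. The sum was therefore not confined to the clusters past 3 times. Without the clusters past 3 times the core pluripotency list still had 8 genes at least 2-fold higher in human cells and a median of -0.87.

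Mesendoderm markers summed to 35.8 CPM in human and 23.3 CPM in cynomolgus cells. Of the 12 measured, KDR, the endothelial growth factor receptor, was the only one at 5 CPM, and TBXT, the factor that defines mesoderm, had 0 UMIs in both species. Definitive endoderm markers (8 measured, 4 at 5 CPM) came to 9.72 and 39.5 CPM. Of the 4, 3 reached 5 CPM only in cynomolgus cells, so that they were higher there follows from this limit. These were the apolipoprotein APOA2 (0.260 and 13.9 CPM), the thyroxine carrier TTR (0.0288 and 7.58 CPM) and the forkhead factor FOXA2 (1.07 and 5.62 CPM), while SOX17, a defining factor of endoderm, had 0 UMIs in human cells and 1 in cynomolgus cells. Trophoblast and amnion markers (14 measured, 4 at 5 CPM) came to 61.8 and 90.9 CPM. Here too 2 of the 4 reached 5 CPM only in cynomolgus cells, so that they were higher there follows from the limit. VTCN1, an immune checkpoint ligand, was at 0.404 and 22 CPM with cluster ranges that did not overlap, and the keratin KRT7 at 4.44 and 12.7 CPM. CGA, the hormone subunit of trophoblast, had 0 UMIs in both species. Of other members under 5 CPM, GABRP was at 2.37 CPM in human cells with 0 UMIs in cynomolgus cells, and HEY1 at 1.44 and 3.37 CPM. Neural crest markers (10 measured, 4 at 5 CPM) came to 57.0 and 30.8 CPM, and SOX10 was under 1 CPM in both species. Fibroblast markers (12 measured, 7 at 5 CPM) reached 295 and 723 CPM. Of the 7, 3 were at least 2-fold higher in cynomolgus (all genes, 16.0%) and 2 in human cells (all genes, 14.7%). Most of the cynomolgus sum was TAGLN, an actin-binding protein of contractile cells (28.2 and 628 CPM), which stood at 316 to 2091 CPM in every cynomolgus cluster and at 5.06 to 61.3 CPM in the human ones. The smooth muscle actin ACTA2 (1.01 and 13.5 CPM) and the growth factor receptor PDGFRB (1.87 and 10.3 CPM) were also higher in cynomolgus cells. Both reached 5 CPM only there. Most of the human sum was THY1 (200 and 46.2 CPM), which with COL1A2 was lower in cynomolgus cells, and LUM, a matrix proteoglycan of fibroblasts, had 0 UMIs in both species. VTCN1 and TAGLN each have, within 2 genes, a neighbour with no cynomolgus symbol (TTF2 and PAFAH1B2). The part of these markers in the other differences was not tested.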

How the data were processed

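Gene-by-barcode matrices of UMI counts were deposited by the authors, 1 library for day 0 and 1 for day 7. They were made with Cell Ranger, version 7.1.0 per the file headers and 7.2.0 per the submitters' processing notes, which also list GRCh38. Gene prefixes name GRCh38 and Macaca_fascicularis 6.0 with Ensembl release 107. No source used here states how reads were mapped to both genomes.

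Raw counts were summed over the called cells of a species and divided by the own-genome, non-mitochondrial total. A pseudocount of 1 CPM understates differences of low genes. Where no UMI was seen, 3 counts served as the floor (0.0865 CPM in human and 0.281 CPM in cynomolgus cells). No doublet caller was run. Thinning to 2500 own-genome UMIs left out 496 human and 12 cynomolgus cells. Clusters used 2000 variable genes, 30 components, 15 neighbours and Leiden resolution 0.5. Members, 29 gene lists, alternatives and the naming rule (15 largest differences each way at 50 CPM, UGP2, and list members at the extremes or needed to show what a list does) were chosen with earlier results of these data known. Gene order came from RefSeq, assembly T2T-MFA8v1.1, without its coordinates. Some genes that met the naming rule are not reported here, and the next in order took their place. The ratio was tested on simulated data. Software was scanpy 1.11.5 with leidenalg 0.10.2 for clusters, and numpy 2.4.6, pandas 2.3.3, scikit-learn 1.9.0, matplotlib 3.10.9 and scipy 1.17.1 under Python 3.11.15 for the rest.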

Additional observations from a re-analysis of the deposited data

Results flagged for a closer look

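Some signal lay outside the genes compared. Cynomolgus genes without a symbol held 18.3% of the own-genome UMIs of cynomolgus cells, and 468 of them reached 50 CPM. These genes have no human partner by name, so they entered no comparison. The human copy of TRIM71, which has no cynomolgus symbol, stood at 305 CPM in cynomolgus cells, beside 286 CPM in human cells, where the median gene's human copy stood at 4.93% of its human level.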

How the results depend on the processing

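No paired analysis was possible because each species at day 0 is 1 group of cells from 1 library. The 30 genes named for their distance kept their direction and a 2-fold difference in all 494 values computed under the alternatives. Their choice as the largest differences in the same cells favours this, so nothing is read from it. The count of genes higher in cynomolgus cells went from 1613 to 1015 with 5 CPM asked in both species and to 1017 with the filter on the other-genome copy. The count higher in human cells went from 1490 to 858 at 20 CPM, 716 with 5 CPM in both species and 316 with the filter on the other-genome copy; fewer genes enter under each of these. The median ratio of 0.13 became 0.20 with mitochondrial UMIs in the total, 0.000519 with the total over shared symbols, -0.0183 after rescaling, 0.16 with equal weight per cell, 0.19 with both copies summed, 0.0645 with no minimum level, 0.18 at 20 CPM and 0.24 with the filter on the other-genome copy. The total over shared symbols gave 1451 genes higher in cynomolgus and 1828 higher in human cells. Summing both copies turned FOXD3 (0.39), TGFB1 (0.12) and ZIC5 (0.00151) to the cynomolgus side. With no minimum level the median of the naive list became -0.19 and that of the mesendoderm markers 0.14. Of 518 list medians under the alternatives, 56 had the other sign, in 15 of 29 lists, and for 44 of these both medians lay within 0.5 of 0. Among the others the fibroblast markers went from 0.61 to -2.09 (3 genes) and the neural progenitor markers from 0.06 to -1.92 (7 genes) at 20 CPM, and the neural crest markers from -0.59 to 0.44 with both copies summed. Core pluripotency, BMP and ID and the ATF4 list kept their sign under every alternative run. Calling species at 80% gave 5486 human and 4466 cynomolgus cells, and at 95% it left 0 cynomolgus cells, so that alternative gave no value. Depth limits cynomolgus levels under 0.281 CPM.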

Other observations

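Human genes without a shared symbol showed their human copy in cynomolgus cells more often than genes with one. Of 657 such nuclear genes at 50 CPM or more in human cells, 132 (20.1%) stood above 20% of their human level in cynomolgus cells, against 149 of 3645 shared genes (4.09%). In 34 of the 657, and in 2 of the 3645, the human copy was higher in cynomolgus than in human cells. The following genes were chosen after their values were seen. SSB, an RNA-binding protein that protects new RNA polymerase III transcripts, was at 838 CPM in human cells and its human copy at 2247 CPM in cynomolgus cells. FAU, which encodes a ribosomal protein fused to a ubiquitin-like domain, was at 1418 and 2080 CPM. CKS2, a subunit of cell cycle kinases, was at 432 and 498 CPM, and the pore-forming apoptosis protein BAX at 317 and 335 CPM. Levels of these genes in cynomolgus cells cannot be read from an own copy by name, and the source of the human-copy UMIs was not tested.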
